A study of Capra hircus with 6 samples.

Results

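The genes of dopamine synthesis, transport and reception, with the prolactin receptor, were chosen by symbol from a deposited table of read counts: TH, DDC, SLC6A3, SLC18A2, GCH1, DRD1, DRD2, MAOA, MAOB and PRLR. Of these 10 symbols, 8 matched a row of the 28907 in the table, and all 8 were among the 16756 genes tested. MAOA and MAOB, the monoamine oxidases that break dopamine down, were not analysed here.

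Dopamine in the medio-basal hypothalamus is made in neurons of the arcuate nucleus and its surroundings. Tyrosine hydroxylase (TH), with a tetrahydrobiopterin cofactor whose synthesis starts at GTP cyclohydrolase 1 (GCH1), turns tyrosine into L-DOPA, and DOPA decarboxylase (DDC) turns L-DOPA into dopamine. The vesicular monoamine transporter (SLC18A2) loads it into vesicles, the dopamine transporter (SLC6A3) takes it back up, and the receptors DRD1 and DRD2 raise or lower cyclic AMP in the cells that receive it. Arcuate dopamine neurons hold back prolactin secretion from the pituitary, and prolactin acts on them through its receptor (PRLR). In sheep, hypothalamic dopamine neurons are also known to take part in the inhibition of GnRH secretion by oestradiol outside the breeding season.

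The series used adult goats of the Alpine breed: 5 in the follicular phase in January, 5 in the luteal phase in January and 8 in anestrus, the season without ovarian cycles, in mid-May. Medio-basal hypothalamus RNA was mixed at random into 2 equimolar pools for each condition, so each library is a pool, and the number of goats in a pool is not given in the sources used here. The comparison was between the 2 follicular and the 2 anestrus pools, which differ in season and in ovarian state together, and the luteal pools were not analysed here. P-values therefore measure the spread between 2 pools a group. An exact permutation test of 2 against 2 cannot give a two-sided p below 0.333, so the tests reported are those of a model fitted over all genes.

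Total counts ran from 14553821 to 25292678 per library. Levels are CPM, a gene's counts scaled to a common library total, after TMM scaling between libraries. No gene lengths fitting the counts were at hand, so levels are compared between pools and not between genes. All 16 matched arcuate neuron markers passed the count filter, with a summed level of 1206 and 854 CPM in follicular pools 1 and 2 and of 1298 and 931 CPM in anestrus pools 1 and 2. Passing this filter does not set the region apart from its neighbours. Of the matched markers, 11 of 12 for other hypothalamic and thalamic areas, 9 of 10 for striatum and 11 of 12 for pituitary passed too. Of the listed transcription factors of midbrain dopamine neurons, some were at or near 0 and others were not. FOXA2 had 0 counts in every library, which allows at most 0.118 to 0.210 CPM (3 counts), EN1 had 1 to 7 counts and PITX3 5 to 9, whereas LMX1B had 15 to 46 counts and NR4A2 131 to 562.

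None of the 8 genes passed an adjusted p of 0.05 between the follicular phase and anestrus, and 0 had an unadjusted p under 0.05 (edgeR's quasi-likelihood test with Benjamini-Hochberg adjustment). Over all genes tested, 0.203% were called in either direction, and 8.55% had an unadjusted p under 0.05. The DESeq2 Wald test called 0 of 7, giving SLC6A3 no adjusted p, and limma-voom 0 of 8. The 95% intervals of the fold, follicular over anestrus, ran from 0.66 to 1.22 for the most precisely measured gene, PRLR, and from 0.47 to 4.49 for the least, SLC6A3. The 8 log2 fold changes, follicular minus anestrus, ran from -0.20 to 0.54 with a median of 0.21, beside a median of -0.000672 over all genes tested. Of the 8, 6 were positive, beside 49.9% of all genes tested. For 7 of the 8 genes the CPM of the groups overlapped. Over all genes tested, 38.3% did not overlap, 17.6% being higher and 20.7% lower in the follicular phase.

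**Figure D1:**
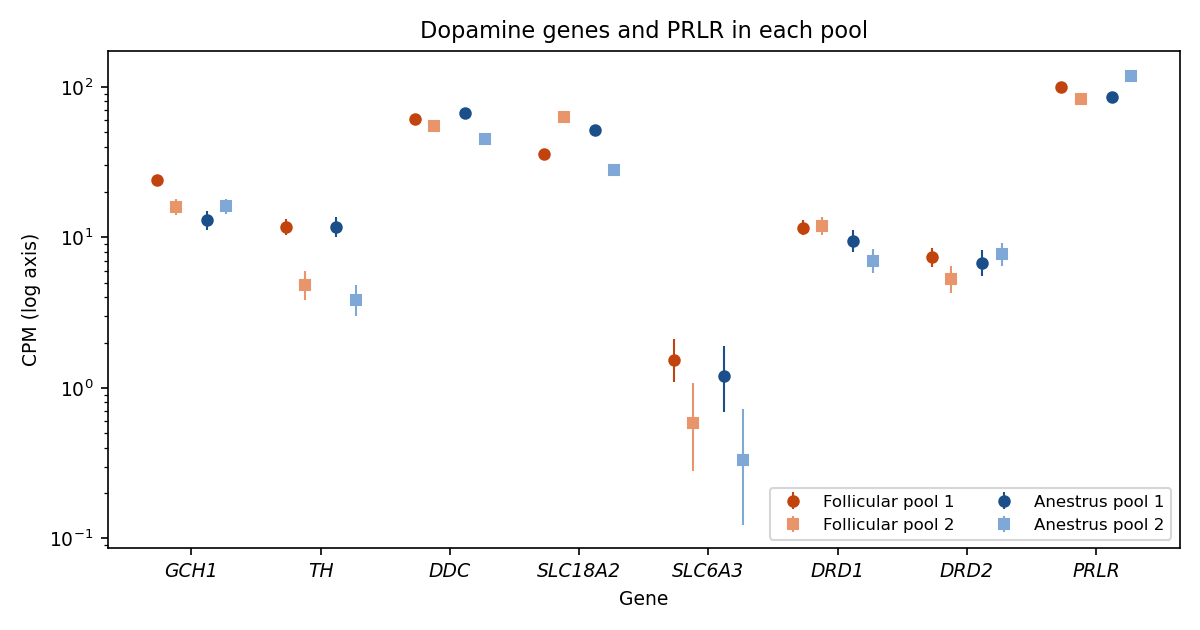
Level of each gene in CPM (log axis) in the 4 pools; bars are exact 95% Poisson intervals of the count and cover counting error only. TH and SLC6A3 are higher in pool 1 than in pool 2 of both groups, and only DRD1 has both follicular pools above both anestrus pools.

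TH, the rate-limiting enzyme of the pathway, was at 11.7 and 4.82 CPM in pools 1 and 2 of the follicular group, and anestrus pools 1 and 2 stood at 11.8 and 3.83 CPM. The pools of a group thus lay 2.43-fold apart in the follicular phase and 3.07-fold apart in anestrus, while the group means were 8.28 ± 4.88 and 7.80 ± 5.62 CPM (SD, n = 2 pools each). The log2 fold change was 0.10 ± 0.58 (SE), with a 95% interval of -1.23 to 1.44 and an adjusted p of 0.983 (edgeR). In fold terms the interval runs from 0.43 to 2.71. The log2 fold change of TH turned negative without follicular pool 1 (-0.66) and without anestrus pool 2 (-0.45), and was 0.60 without follicular pool 2 and 1.12 without anestrus pool 1. In bulk tissue, fewer cells of a type and less RNA per cell cannot be told apart, for TH as for every gene below.

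SLC6A3, the transporter that marks dopamine neurons most narrowly in this set, was scarce, with 39 and 10 follicular counts against 17 and 6 in anestrus. These counts give 1.53 and 0.58 CPM in the follicular phase and 1.19 and 0.33 CPM in anestrus. As for TH, pool 1 was the higher in both groups. Its log2 fold change was 0.54 ± 0.73 (adjusted p = 0.917, edgeR), with values of -0.33 and 1.04 without follicular pool 1 and 2, and of 1.69 and -0.09 without anestrus pool 1 and 2.

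Set against TH within a library, where the library total cancels, SLC6A3 spread 1.51-fold over the pools. There were 13.1 SLC6A3 counts per 100 TH counts in follicular pool 1 (exact 95% binomial interval 9.12 to 18.3) and 12.05 in follicular pool 2 (5.57 to 23.3). In anestrus the ratio was 10.1 in pool 1 (5.76 to 16.7) and 8.70 in pool 2 (3.08 to 19.9). All 4 intervals overlapped. Both follicular ratios were higher than both anestrus ratios, and a difference in the ratio between the groups was not tested. A narrow spread was not particular to SLC6A3. Counts of the arcuate peptide gene AGRP per 100 TH spread 1.64-fold, from 49.4 to 81.2. Those of DBH, the enzyme of noradrenaline synthesis, ran from 8.43 to 13.0 per 100 TH. POMC, another arcuate peptide gene, spread 3.07-fold against TH. These ratios were computed after the values had been seen.

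The ratios of DDC, GCH1 and SLC18A2 to TH spread more widely than that of SLC6A3. DDC had 524 counts per 100 of TH in follicular pool 1 and 1131 in pool 2, and 566 and 1175 in anestrus pools 1 and 2. The intervals of the pools numbered 1 (463 to 596, and 480 to 671) lay below those of the pools numbered 2 (903 to 1434, and 918 to 1526). GCH1 per 100 TH ran from 110 in anestrus pool 1 to 419 in anestrus pool 2, and SLC18A2 per 100 TH from 305 in follicular pool 1 to 1311 in follicular pool 2.

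**Figure D2:**
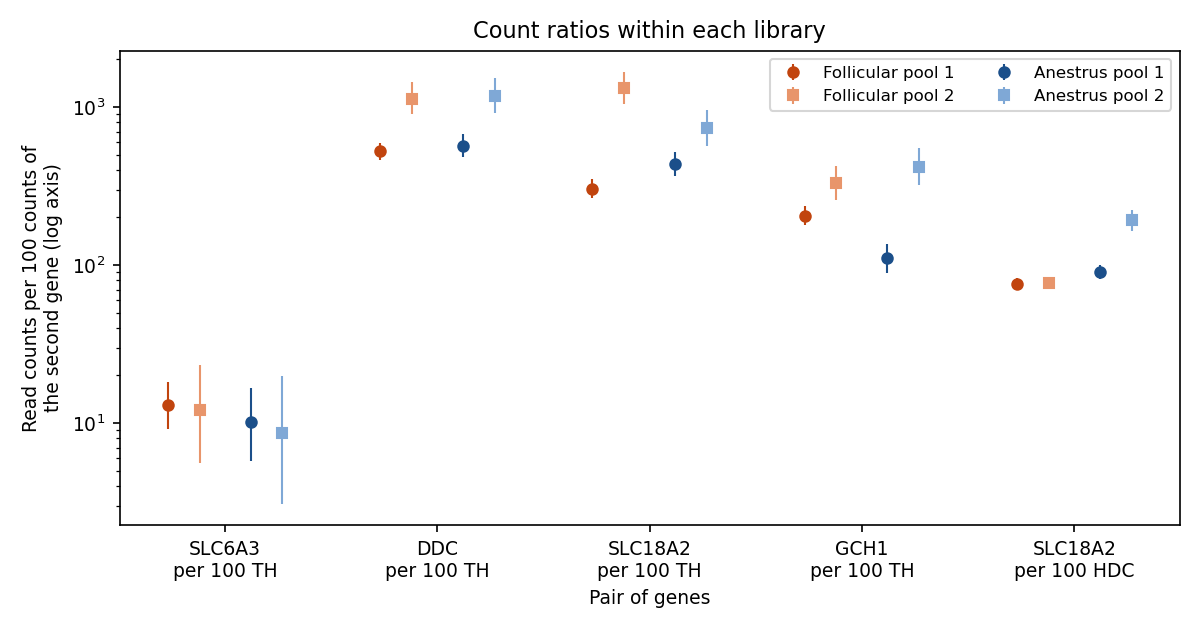
Counts of one gene per 100 counts of another in the same library (log axis), with exact 95% binomial intervals that cover counting error only. SLC6A3 per 100 TH runs from 8.70 to 13.1 with overlapping intervals, while DDC, SLC18A2 and GCH1 per 100 TH spread 2.24-, 4.30- and 3.80-fold.

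DDC, which also serves serotonin synthesis, was at 61.5 and 54.6 CPM in the follicular pools and at 66.7 and 45.0 CPM in the anestrus pools. The anestrus pools enclosed the follicular ones. Its log2 fold change was 0.06 ± 0.21, with a 95% interval of the fold of 0.75 to 1.45 (adjusted p = 0.975, edgeR).

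GCH1 was at 24.1 and 15.9 CPM in pools 1 and 2 of the follicular group, and anestrus pools 1 and 2 stood at 13.0 and 16.0 CPM. Follicular pool 1 stood above the rest, and follicular pool 2 lay just under anestrus pool 2. GCH1 had a log2 fold change of 0.46 ± 0.29 (adjusted p = 0.736, edgeR). It stayed positive in each of the 14 alternative fits, from 0.14 without follicular pool 1 to 0.73 without follicular pool 2.

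Of the 7 other genes of tetrahydrobiopterin synthesis, recycling and use that were listed, all were tested and 0 were called, with 1 positive and 6 negative log2 fold changes and a median of -0.05. PCBD2, a pterin dehydratase, had the smallest p of that list, at 55.4 and 67.5 CPM in the follicular pools and 96.2 and 70.6 CPM in the anestrus pools. The groups did not overlap, and the log2 fold change was -0.44 ± 0.20 (adjusted p = 0.589, edgeR). GCHFR, the feedback regulator protein of GCH1, had pool 1 the higher in both groups, as TH did and GCH1 did not. It was at 9.48 and 5.00 CPM in the follicular pools, with 8.20 and 3.39 CPM in anestrus. GCHFR was picked after its values were seen.

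SLC18A2 loads serotonin, noradrenaline and histamine as well as dopamine, and its pools were ordered unlike those of TH. It was at 35.8 and 63.2 CPM in pools 1 and 2 of the follicular group, and anestrus pools 1 and 2 stood at 51.3 and 28.1 CPM. Anestrus pool 1 lay between the follicular pools and anestrus pool 2 below them, so the groups overlapped. The log2 fold change was 0.32 ± 0.34 with a 95% interval of the fold of 0.72 to 2.15 (adjusted p = 0.886, edgeR). Without anestrus pool 1, SLC18A2 was called higher in the follicular phase, at 0.81 ± 0.24, but anestrus pool 2 is then alone in its group and is assumed to vary as the follicular pools do. Calls over all genes rose in that fit as well. The value was -0.15 without follicular pool 2 and -0.01 without anestrus pool 2. In the alternatives that kept all pools, the lowest adjusted p of SLC18A2 was 0.777 (edgeR without a count filter).

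HDC, the enzyme of histamine synthesis and a marker of histamine neurons of the posterior hypothalamus, was picked after its values were seen. It was at 47.1 and 81.7 CPM in pools 1 and 2 of the follicular group, and anestrus pools 1 and 2 stood at 56.4 and 14.7 CPM, the same order of pools as SLC18A2. SLC18A2 counts per 100 HDC counts were 75.9 and 77.4 in the follicular pools, against 90.9 and 192 in anestrus. The intervals of the follicular pools (69.6 to 82.8 and 71.4 to 83.8) overlapped, and that of anestrus pool 2 (165 to 224) lay above the other 3. Anestrus pool 2 was also lowest for the list of markers of other hypothalamic and thalamic areas, to which HDC belongs, with a summed level of 319 CPM beside 552, 701 and 566 CPM in follicular pools 1 and 2 and anestrus pool 1. Most of each sum was CALB2 and PMCH. CALB2 was at 262 and 255 CPM in the follicular pools and 219 and 146 CPM in anestrus, and PMCH at 89.4 and 211, then 152 and 46.0 CPM. NR5A1 was instead highest in anestrus pool 2, at 31.2 CPM beside 16.6, 23.4 and 22.6 CPM. These members were picked after their values were seen. Of the list's 11 tested members 0 were called, 6 were higher in the follicular phase without overlap and 1 was lower, beside 17.6% and 20.7% of all genes tested. The part of this difference between pools in the SLC18A2 values was not tested.

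Markers of noradrenaline neurons, which also hold TH, had few counts or none. DBH, which turns dopamine into noradrenaline, had 34 and 7 follicular counts against 17 and 9 in anestrus. SLC6A3 had similar counts, 39 and 10 against 17 and 6. PHOX2A, a factor that defines noradrenaline neurons, had 0 counts in all 4 pools. DBH per 100 TH was 11.4 and 8.43 in the follicular phase and 10.1 and 13.0 in anestrus, with overlapping intervals from 3.29 to 26.2. The 9 markers of noradrenaline and serotonin neurons summed to 27.8 and 17.3 CPM in the follicular pools and 40.4 and 26.9 CPM in the anestrus pools, 20.5, 11.2, 33.9 and 18.9 CPM of it from GATA2, which other cells also use. The part of these cells in the TH values was not tested.

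The distance between pools set TH and SLC6A3 apart from most genes. The within-group SD of log2 CPM was 1.02 for TH and 1.00 for SLC6A3, larger than in 98.4% and 98.3% of the genes tested. Among 3627 genes with a mean level within 2-fold of TH, 98.8% had a smaller SD than TH. Among 2010 genes near the level of SLC6A3 this was 91.8%. SLC18A2 exceeded 90.5% of the genes tested, whereas DRD1 exceeded 48.4%, DRD2 56.2%, PRLR 60.4%, DDC 64.6% and GCH1 70.5%.

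TH and SLC6A3 were the 2 members at least 2-fold higher in pool 1 than in pool 2 of both groups. Of all genes tested, 0.997% (167) showed that pattern and 0.322% (54) showed the opposite one. The numbers do not tie an anestrus pool to a follicular pool: the anestrus library that is pool 1 by its name is the second replicate by its title. A pair of arcuate peptide genes were also higher in pool 1 of both groups. AGRP, an appetite-raising peptide, was at 7.79 and 2.38 CPM in the follicular pools and 7.01 and 3.11 CPM in the anestrus pools, and POMC, the precursor of melanocortins, was at 170 and 37.8 CPM and at 260 and 92.0 CPM. Of the 16 arcuate markers, 6 were at least 1.5-fold higher in pool 1 in both groups, a threshold set after seeing the values, beside 4.61% of all genes tested. POMC is also a pituitary gene. The kisspeptin gene KISS1, at 18.97 and 17.4 CPM in the follicular pools and 16.4 and 8.22 CPM in anestrus, and the peptide gene NPY, at 15.7 and 17.5 CPM and then 24.9 and 13.3 CPM, were not among these 6.

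The pattern was not limited to arcuate neuron genes. The 3 named genes nearest to TH in log2 CPM over the 4 pools, of 13509 compared, were NTHL1, a DNA repair glycosylase, GLI4, a zinc finger gene, and FAM181A, at Euclidean distances of 0.12, 0.14 and 0.14. NTHL1 was at 4.49 and 1.80 CPM in the follicular pools and 4.35 and 1.28 CPM in the anestrus pools. Of the 44 tested pathway genes, 6 were at least 1.5-fold higher in pool 1 of both groups as well, among them GCHFR, DBH, SLC29A4, FOXA1 and CISH, picked after their values were seen. SLC29A4, a low-affinity monoamine transporter, was at 10.9 and 6.16 CPM and at 11.6 and 3.83 CPM. The source of the difference between pools was not tested.

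**Figure D3:**
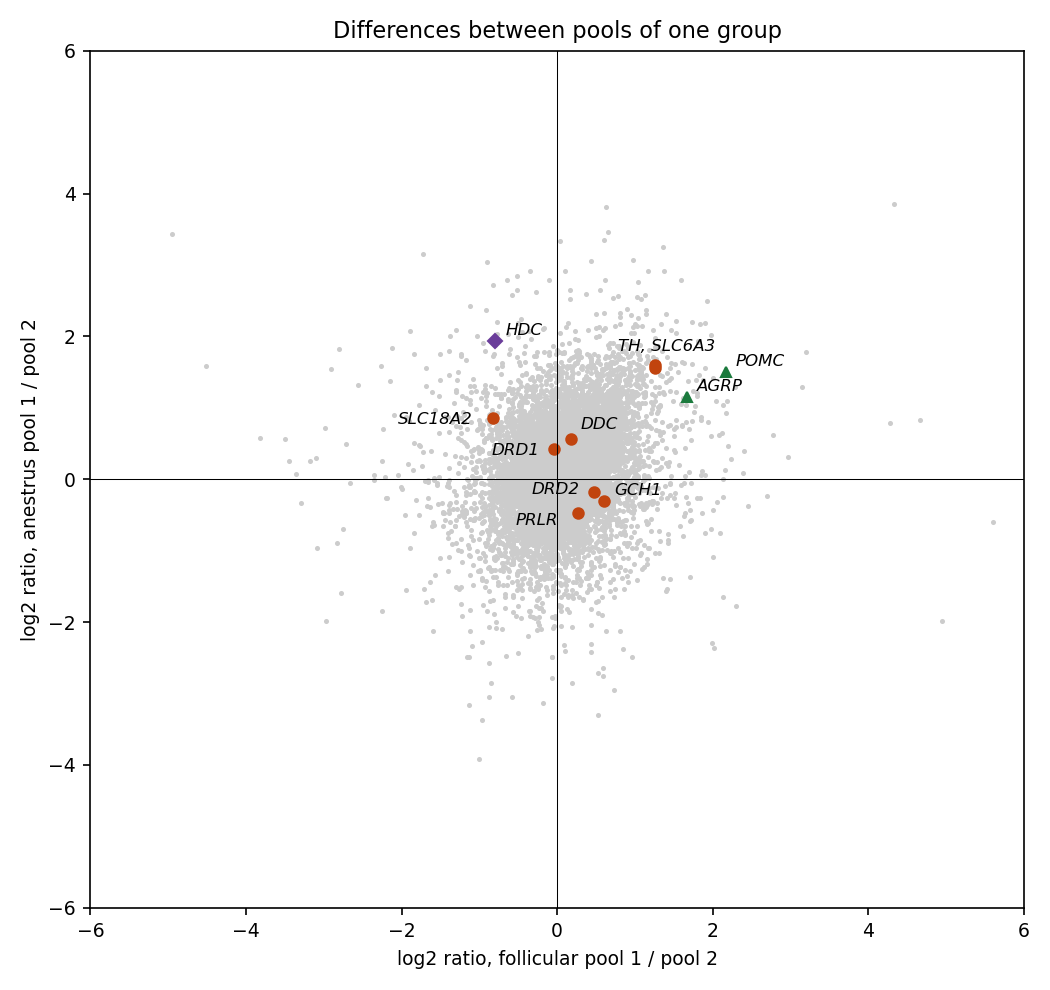
Log2 ratio of pool 1 to pool 2 in the follicular phase (horizontal axis) and in anestrus (vertical axis) for the 16756 genes tested (grey), the 8 genes (red circles), POMC and AGRP (green triangles) and HDC (purple diamond). TH and SLC6A3 lie almost on the same point at the upper right, near AGRP, while SLC18A2 and HDC lie at the upper left.

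DRD1, the receptor that raises cyclic AMP, was at 11.6 and 11.9 CPM in the follicular pools and at 9.46 and 6.996 CPM in the anestrus pools. Both follicular pools were above both anestrus pools, which made it the 1 gene of the 8 without overlap. Of all genes tested, 17.6% were higher in the follicular phase in that way. The log2 fold change was 0.51 ± 0.30, a fold of 1.43 with a 95% interval of 0.90 to 2.26, and did not pass (adjusted p = 0.722, edgeR). It was positive in each of the 14 alternatives, from 0.35 without anestrus pool 2 to 0.74 without anestrus pool 1. As the groups did not overlap, leaving out a pool could hardly change the sign, and the other alternatives refit the same pools.

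General neuron markers, taken as a sum, lay in the same order of groups as DRD1. Their summed level was 5900 and 6549 CPM in the follicular pools and 5487 and 4900 CPM in the anestrus pools. All 10 tested had a positive log2 fold change, with a median of 0.35, and 0 were called. Of the 10, 6 were higher in the follicular phase without overlap, beside 17.6% of all genes tested. Their part in the DRD1 values was not tested. Glial and vascular lists had positive medians as well: 0.57 for astrocyte markers (1 of 10 called, GFAP, 2.01-fold higher in the follicular phase), 0.77 for oligodendrocyte, 0.25 for microglia, 0.54 for ependymal and 0.10 for vascular markers, with 0 called in the last 4 lists. Higher in the follicular phase without overlap were 10 of 10 astrocyte and 11 of 11 oligodendrocyte markers. The same held for 4 of 10 microglia, 4 of 6 ependymal and 0 of 9 vascular markers. The part of these cells in the DRD1 values was not tested. ADORA2A, which defines striatal neurons that do not carry DRD1, had 10 and 2 follicular counts against 0 and 2 in anestrus. Of the 9 tested striatal markers 1 was called, PDE10A, a phosphodiesterase, which was 2.53-fold lower in the follicular phase (log2 fold change -1.34 ± 0.18, adjusted p = 0.0207, edgeR).

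DRD2, the receptor that lowers cyclic AMP, is carried by dopamine neurons themselves, by their targets and by pituitary cells. It was at 7.36 and 5.29 CPM in the follicular pools and at 6.80 and 7.72 CPM in the anestrus pools. Follicular pool 2 was the lowest and the groups overlapped. The log2 fold change was -0.20 ± 0.33, with a 95% interval of the fold of 0.53 to 1.45 (adjusted p = 0.931, edgeR), and it was 0.02 without follicular pool 2.

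Pituitary markers summed to 5550 and 4521 CPM in the follicular pools and to 14729 and 11518 CPM in the anestrus pools, most of it CGA. Without CGA and TSHB the other 10 summed to 313 and 220 CPM in the follicular pools and to 387 and 399 CPM in the anestrus pools. LHB, a gonadotropin subunit picked after its values were seen, was at 118 and 27.9 CPM against 31.9 and 20.8 CPM. Of 11 tested, 9 did not pass and 2 were lower in the follicular phase, TSHB and CGA, the subunits of thyrotropin, with log2 fold changes of -7.45 ± 0.30 and -1.30 ± 0.18 (edgeR). Their part in the DRD2 values was not tested. DRD1 counts per 100 DRD2 counts were 157 and 224 in the follicular pools, against 139 and 90.6 in anestrus. Both follicular ratios were higher than both anestrus ratios, although the intervals of follicular pool 1 (130 to 190) and anestrus pool 1 (106 to 183) overlapped.

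The other dopamine receptors were low or did not pass. DRD5, which like DRD1 raises cyclic AMP, was at 4.72 and 6.39 CPM in the follicular pools and 6.52 and 3.72 CPM in the anestrus pools. DRD3 had 6 and 3 follicular counts against 0 and 0 in anestrus, and DRD4 had 1 count in all, so both were left out of the test. Of 11 tested genes of receptors and their signalling, 0 were called, 8 log2 fold changes were positive and 3 negative, and the median was 0.06. RGS4, a brake on G protein signalling, had the smallest p, with 94.2 and 134 CPM in the follicular pools against 93.9 and 80.6 CPM in the anestrus pools (log2 fold change 0.39 ± 0.20, adjusted p = 0.66, edgeR). PPP1R1B, the DARPP-32 phosphatase inhibitor downstream of DRD1, was at 36.7 and 33.6 CPM and at 30.6 and 24.6 CPM. It was picked after its values were seen, and its adjusted p was 0.738 (edgeR).

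PRLR, the receptor of prolactin, was at 99.8 and 82.5 CPM in pools 1 and 2 of the follicular group, and anestrus pools 1 and 2 stood at 84.9 and 118 CPM. Follicular pool 1 lay between the anestrus pools and follicular pool 2 just below them. For PRLR the log2 fold change was -0.15 ± 0.20, a fold of 0.90 with a 95% interval of 0.66 to 1.22 (adjusted p = 0.913, edgeR). It was 0.15 without anestrus pool 2. The interval leaves out a change of 2-fold in either direction for PRLR, and those of DDC and DRD2 do so too, while those of the other 5 genes do not.

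PRLR is abundant in choroid plexus, and the values of that tissue's markers are given beside it. The other 9 choroid plexus markers summed to 378 and 131 CPM in the follicular pools and to 165 and 150 CPM in the anestrus pools, with follicular pool 1 high through TTR, the thyroid hormone carrier, at 252 CPM beside 27.4, 61.1 and 17.7 CPM in the other pools. Without TTR the remaining 8 summed to 126 and 103 CPM in the follicular pools and to 104 and 132 CPM in the anestrus pools. This was the same order of pools as PRLR, but most of each sum was AQP1. AQP1 was at 74.9 and 60.5 CPM in the follicular pools and 61.7 and 75.2 CPM in the anestrus pools. Other markers had another order: KCNJ13, FOLR1 and KL were highest in follicular pool 1. SLC4A5 was higher in both follicular pools than in both anestrus pools. CLIC6 and OTX2 were instead lower in both follicular pools than in both anestrus pools. These genes were picked after their values were seen. Of the 8 choroid plexus markers besides PRLR that passed the count filter, TTR included, 0 were called. Of these 8, 2 were higher in the follicular phase without overlap and 2 lower, beside 17.6% and 20.7% of all genes tested. The part of choroid plexus in the PRLR values was not tested. The 3 named genes nearest to PRLR over the 4 pools were ANXA4, an annexin, TRAFD1 and DNMT3A, a DNA methyltransferase, at distances of 0.03, 0.04 and 0.06 in log2 CPM. With 4 pools and 13509 genes compared, such likeness is a description only.

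Of the 7 tested genes of the pathway below PRLR, 0 were called, 5 had positive and 2 negative log2 fold changes, and the median was 0.03. JAK2, the kinase bound to PRLR, was at 33.0 and 39.6 CPM in the follicular pools and 33.2 and 38.0 CPM in the anestrus pools. STAT5B, the factor it activates, was at 109 and 97.7 CPM and at 90.2 and 102 CPM. SOCS2, a feedback inhibitor, had the smallest p, at 15.9 and 14.4 CPM against 23.2 and 19.2 CPM, with no overlap and a log2 fold change of -0.48 ± 0.25 (adjusted p = 0.663, edgeR). CISH, a feedback inhibitor induced by STAT5, was at 8.46 and 1.98 CPM and at 6.80 and 3.11 CPM, with pool 1 high in both groups. JAK2, STAT5B and CISH were picked after their values were seen.

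Over the 6 pathway lists together, 44 of 56 matched genes were tested, of which 43 did not pass, 1 was lower in the follicular phase and 0 were higher. The shares called over all genes tested were 0.191% lower and 0.0119% higher. At an unadjusted p under 0.05 there were 4 of the 44. The groups did not overlap for 14 of them (31.8%), beside the 38.3% of all genes tested, and 25 log2 fold changes were positive and 19 negative.

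The called gene was ALDH1A1, an aldehyde dehydrogenase that acts on retinal and, in some dopamine neurons, on the aldehyde formed from dopamine. It was at 116 and 103 CPM in the follicular pools and at 208 and 230 CPM in the anestrus pools, with no overlap and a 2.00-fold higher level in anestrus (log2 fold change -1.001 ± 0.16, adjusted p = 0.0445, edgeR). Its order of pools was unlike that of TH. With all pools, the call was lost at adjusted p of 0.0523 with a filter on mean CPM and 0.0506 without robust estimation (edgeR). It was also lost without either follicular pool and kept without either anestrus pool, in fits that leave 1 pool alone in its group. The log2 fold change of ALDH1A1 was -1.07 and -0.92 without follicular pool 1 and 2, and -1.07 and -0.89 without anestrus pool 1 and 2. Tanycytes also use ALDH1A1. Of 13 tested tanycyte markers, DIO2, which activates thyroid hormone, was called lower in the follicular phase (log2 fold change -1.20 ± 0.17), 12 did not pass, and the summed level was 1683 and 1614 CPM in the follicular pools and 2077 and 1961 CPM in the anestrus pools. Most of each sum was VIM, CRYM and CD59. The part of tanycytes in the ALDH1A1 values was not tested. Among the markers named as called, TSHB kept its call without any single pool. Without follicular pool 1 the calls of CGA, DIO2, GFAP and PDE10A were lost, and without follicular pool 2 those of DIO2 and GFAP. All of these calls were kept without either anestrus pool. Leaving out a pool gave log2 fold changes of -1.43 to -1.11 for CGA and -1.33 to -1.02 for DIO2. For GFAP they were 0.97 to 1.09, and for PDE10A -1.51 to -1.10.

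Among the other 5 genes tested for dopamine breakdown and conversion, 0 were called. Of the 6 tested monoamine transport genes 0 were called.

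Of the 7 tested transcription factors of dopamine neurons, 0 were called, and 7 more had too few counts to test. ONECUT2 had the smallest p, at 5.08 and 10.2 CPM in the follicular pools and 3.51 and 3.44 CPM in the anestrus pools (log2 fold change 1.13 ± 0.40, adjusted p = 0.428, edgeR). The groups did not overlap, with follicular pool 2 high. NR4A2, which drives TH transcription in midbrain neurons and is also induced by activity, was at 22.1 and 11.2 CPM and at 9.18 and 13.4 CPM, with follicular pool 1 high as for GCH1, and was picked after its values were seen.

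**Figure D4:**
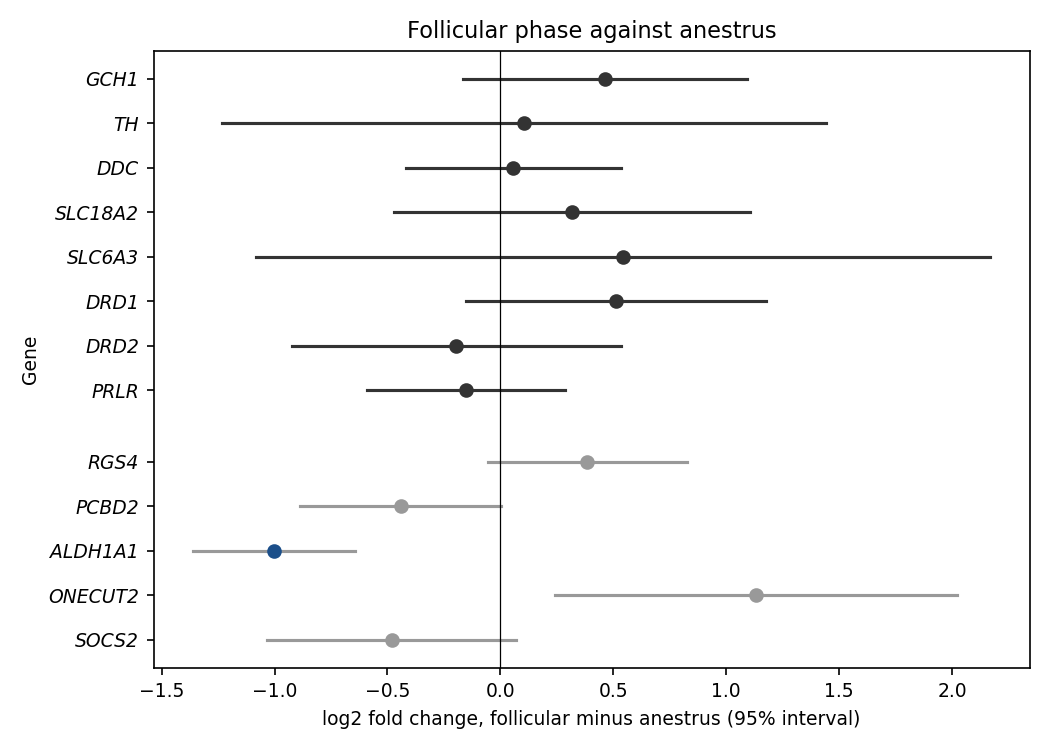
Log2 fold change, follicular minus anestrus, with its 95% interval, for the 8 genes (black) and for the gene with the smallest p of 5 pathway lists (grey, with the called gene ALDH1A1 in blue). All 8 intervals in black include 0, and those of TH and SLC6A3 are the widest.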

How the data were processed

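The authors deposited raw read counts per gene for the follicular and anestrus pools. Per the labels' protocols the kit was Truseq stranded mRNA. The submitters' processing notes name featureCounts 2.0.0, TopHat2 2.1.1, Bowtie2 2.3.5.1, SAMtools 1.9, bcl2fastq 2.20 and FastQC. Build, annotation and strand setting are not given in the sources at hand, so no coordinates are printed and reads of overlapping antisense genes may be counted.

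Genes were kept with edgeR's filterByExpr (minimum count 10, minimum total 15), and libraries scaled by TMM. The test was that of edgeR 4.0.16 under R 4.3.3 (robust glmQLFit, glmQLFTest) with 2 residual degrees of freedom and Benjamini-Hochberg adjustment over all 16756 genes, with calls at 0.05. Standard errors come from the log2 fold change and its F statistic. Log2 CPM used a prior count of 2. Alternatives included limma-voom 3.58.1 and DESeq2 1.42.0. The fitting steps were tested on simulated data with the same spread between pools for every gene. Of 64 simulated 2-fold changes 26 (40.6%) were called, of 65 4-fold changes 65, and of 63 8-fold changes 63. The simulation as a whole gave 11 false calls. TH and SLC6A3 spread more than most genes, so these shares do not carry over to them. Pools of a group differed by more than counting noise (chi-square per degree of freedom 16.2 and 25.4).

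The 10 symbols, 6 pathway lists and 13 marker lists were chosen with earlier results of these data known. Named genes are the members, each pathway list's called genes and its smallest p, called markers, 8 set markers and the 3 genes nearest TH and PRLR. Results of some genes that the rule names are not reported here. All other named genes fall outside this rule. Some of them are stated as picked after their values were seen. The rest, among them ADORA2A, PHOX2A, GATA2, FOXA2, EN1, PITX3, LMX1B, DRD3, DRD4 and DRD5, are to be read in the same way. Intervals of counts cover counting error only.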

Additional observations from a re-analysis of the deposited data

How the results depend on the processing

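The 8 genes gave 0 calls in every alternative that kept all pools. SLC18A2 was called only without anestrus pool 1. That fit leaves 1 pool in its group, and calls over all genes rose in it as well. In the fits that kept all pools no log2 fold change of the 8 changed sign. Leaving out a pool gave -0.66 to 1.12 for TH, -0.16 to 0.37 for DDC, -0.33 to 1.69 for SLC6A3, -0.15 to 0.81 for SLC18A2, -0.44 to 0.019 for DRD2 and -0.37 to 0.15 for PRLR, and the cause was not tested. Of the pathway genes, 1 was called with all pools, 0 with a filter on mean CPM, 0 without robust estimation, and 0 to 2 when a pool was left out. Over all genes, 34 were called, 300 without a count filter, 146 with the DESeq2 Wald test and 4 to 818 when a pool was left out. A replicate block by the library names gave 90 calls and by the titles' numbers 130, with 0 of the 8 genes called in either. The pool 1 minus pool 2 differences of both groups correlated at 0.26 across genes by the library names, which with 2 pairs of pools that share only a number does not pair them. SLC6A3 rests on 6 to 39 counts a pool, and depth and spread between pools were not separated for it.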
